A study of Mus musculus with 2 samples.

Results

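The 52 genes described here act in G2 and mitosis, from the kinase Cdk1 that drives cells into division to the motors and scaffolds that separate the daughter cells. They were taken by gene symbol, not by their values, and all 52 were found among the 33456 genes of both libraries. They were followed across marker-gated cell types of the mouse yolk sac, and in erythroid cells by globin share. Together they held 0.806% of the UMIs of kept cells in the wild-type library and 0.721% in the mutant library. A UMI is a molecular tag, so that each original RNA molecule is counted once.

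Yolk sac cells of B6 mice gave 1 library from wild-type (WT) and 1 from Baf155 CKO embryos, made with 10x Genomics 5′ single-cell chemistry. Smarcc1 encodes Baf155, a scaffold of the BAF remodeller that slides and evicts nucleosomes. For each genotype, equal numbers of yolk sacs at E9.5 and at E10.5 were pooled, and dead and Ter119-positive cells were sorted away. How many embryos were used, which Cre was active and which exons it removed were not analysed here. The material is labelled as nuclei, although the protocol sorts living cells. Both libraries share the pooling of stages, the freezing and the removal of Ter119-positive red cells. The erythroid cells below are those left after this sort, and whether they were negative for Ter119 or escaped it was not measured here. With 1 library per genotype there was no replicate and no test: intervals are 95% intervals of counting error only, and genotype cannot be told apart from embryo, sort or library.

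In dividing cells, mitosis genes build up through G2, peak as CDK1 with B-type cyclins starts mitosis, and fall once the anaphase-promoting complex (APC/C) degrades its targets. Much of this wave is set by transcription: the DREAM complex holds the genes off in resting cells, and B-MYB and FOXM1 switch them on. Both act at the cell cycle homology region (CHR), a short element near the start site, often beside CCAAT boxes bound by NF-Y. The yolk sac of this age holds primitive erythroblasts and erythromyeloid progenitors, which divide as they mature, beside macrophages, endothelium, mesenchymal and mesothelial stroma and visceral endoderm.

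The promoters of these genes carried the letters of that element. RefSeq promoter windows (GRCm38.p6, 250 bases before to 50 after the start) matched 46 of the 52 genes. The CHR letters TTTGAA or TTCGAA, searched on both strands, were in the windows of 36 genes (78.3%), against 21.7% of the 27025 genes with a window and 6 of 31 S phase genes (19.4%). From 60 bases before the start to its end, 63.0% of the windows held them, against 6.79% of all genes. CCAAT, on either strand, was in 76.1% of the windows against 41.1% of all, and 2 or more copies in 60.9% against 13.3%; S phase genes had 71.0% and 45.2%. CCAAT and CHR letters overlapped in 1 of the 51 windows. Neither was in the windows of Birc5, G2e3, Nuf2, Nusap1 and Tacc3. The letters are matches only, and no binding was measured. Stretches of 150 bases upstream of the start, on the gene's strand, are shown for genes on which the results below turn, with CHR and CCAAT letters of either strand in capitals. Cdk1, Top2a and Mki67 were among the genes at least 1.5-fold higher in CKO erythroid cells, Ccnb2 and Cdc20 mark entry and exit of mitosis, Hmgb2 held the most UMIs, and Ctcf was lower in the CKO library in each compared class.
Cdk1 (chr10:69352939-69353088, minus strand): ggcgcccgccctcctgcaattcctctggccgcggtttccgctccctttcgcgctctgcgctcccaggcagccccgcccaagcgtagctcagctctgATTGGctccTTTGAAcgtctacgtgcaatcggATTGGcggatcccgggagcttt
Ccnb2 (chr9:70421555-70421704, minus strand): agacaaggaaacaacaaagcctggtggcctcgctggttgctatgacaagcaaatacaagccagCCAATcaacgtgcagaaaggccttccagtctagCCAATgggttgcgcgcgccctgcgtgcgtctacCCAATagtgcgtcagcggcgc
Cdc20 (chr4:118437353-118437502, minus strand): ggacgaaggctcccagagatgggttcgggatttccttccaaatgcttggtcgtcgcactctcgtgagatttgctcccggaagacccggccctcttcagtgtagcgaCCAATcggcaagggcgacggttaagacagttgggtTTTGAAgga
Top2a (chr11:99024190-99024339, minus strand): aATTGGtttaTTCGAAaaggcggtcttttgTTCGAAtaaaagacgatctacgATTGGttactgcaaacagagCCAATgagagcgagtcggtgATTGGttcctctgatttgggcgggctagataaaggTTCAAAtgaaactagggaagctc
Mki67 (chr7:135716380-135716529, minus strand): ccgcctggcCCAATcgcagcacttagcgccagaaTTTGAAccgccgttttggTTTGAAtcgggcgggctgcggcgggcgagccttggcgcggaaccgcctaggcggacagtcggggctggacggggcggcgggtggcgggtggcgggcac
Hmgb2 (chr8:57511693-57511842, plus strand): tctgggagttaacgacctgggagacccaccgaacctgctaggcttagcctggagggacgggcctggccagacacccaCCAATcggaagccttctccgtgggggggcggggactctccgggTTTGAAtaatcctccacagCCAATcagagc
Ctcf (chr8:105636388-105636537, plus strand): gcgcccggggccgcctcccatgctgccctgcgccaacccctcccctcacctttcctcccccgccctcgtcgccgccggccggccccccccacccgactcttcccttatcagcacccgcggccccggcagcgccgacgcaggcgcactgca
The Top2a stretch held 3 CHR and 4 CCAAT matches, that of Mki67 2 and 1, that of Hmgb2 1 and 2, and that of Cdk1 1 and 2. Ccnb2 showed 3 CCAAT boxes here and its 2 CHR matches outside this stretch. Ctcf showed no match here and 1 CHR match elsewhere in its window.

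After filtering, 784 WT and 841 CKO cells remained, at medians of 26006 and 25786 UMIs outside globin genes. Cells were gated one by one on marker genes, none of which is among the 52. The compared gates held 200 WT and 152 CKO progenitor-like, 153 and 252 erythroid, 48 and 15 macrophage-like, 58 and 52 endothelium-like and 247 and 282 stromal cells. Median depths, WT then CKO, were 41839.5 and 33670.5 in progenitor-like, 22846 and 24793 in erythroid and 36564 and 48964 in macrophage-like cells. Endothelium-like cells had 14782 and 32175.5, and stromal cells 22578 and 21909.5. The part of depth in the gating was not tested. Megakaryocyte-like cells (8 and 42) and endoderm-like cells (30 and 4) were too few in 1 library for a comparison. The erythroid gate used globin alone. The 10 other erythroid markers had median summed levels of 8378 and 8874 in it, and at most 773 in the other named gates. Levels are counts per 1000000 UMIs outside globin genes (CPM), summed over the cells of a gate. They are not corrected for transcript length and are compared between cells, not between genes. Smarcc1 stood at 102 CPM over WT and 26.6 over CKO cells. It was 116 and 33.1 in progenitor-like, 82.5 and 10.1 in erythroid, 106 and 11.3 in endothelium-like and 98.3 and 32.2 in stromal cells. In macrophage-like cells it was 83.8 and 87.0, so the CKO label is not borne out by Smarcc1 RNA in that gate, nor in the 4 CKO endoderm-like cells (124 against 38.6). Macrophage-like cells also differed in their own markers, at a median summed level of 4724 in WT and 1245 in CKO. Of them, 24 of 48 WT and 14 of 15 CKO cells were Y-positive (UMIs of Y-linked genes and under 3 of Xist). The part of this in the ratios of that gate was not tested. The median globin share in non-erythroid cells, a sign of free RNA, was 0.0354% in the WT and 0.236% in the CKO library.

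The summed level of the 52 genes was lower in the CKO library in 4 gates and higher in erythroid cells. In progenitor-like cells it was 8159 CPM (8097 to 8221) in WT and 6779 (6711 to 6847) in CKO cells, a ratio of 0.831 (0.820 to 0.841). Stromal cells had 7700 and 5926, a ratio of 0.770 (0.759 to 0.780), endothelium-like cells 8938 and 7759 (0.868, 0.846 to 0.891) and macrophage-like cells 7949 and 6839 (0.860, 0.833 to 0.888). Erythroid cells had 8078 in WT and 8931 in CKO cells, 1.11 (1.09 to 1.12). So the order of gates by summed level differed between the libraries. Endothelium-like cells were highest and stromal cells lowest of the 5 in WT, whereas erythroid cells were highest and stromal cells lowest in CKO. By the median of single cells, however, endothelium-like cells had 5941 CPM in WT, the lowest of the 5, and 6769 in CKO. Erythroid cells gave the highest level of 9 of the 52 genes in WT and of 26 in CKO, among gates with enough cells. Stromal cells gave the lowest level of 6 genes in WT and of 28 in CKO, while in WT the endoderm-like cells, at 5859 CPM, gave the lowest level of 29. The gates ranked were not the same: endoderm-like cells were ranked only in WT and megakaryocyte-like cells only in CKO. These counts are therefore not like for like between libraries, and they were not made over all genes. The 42 CKO megakaryocyte-like cells stood at 6991 CPM and the 8 WT cells at 10293. The ratio pointed the same way in each compared gate when levels were taken over all UMIs, or over UMIs outside globin, ribosomal protein and mitochondrial genes. In erythroid and endothelium-like cells, however, it turned without the cells high in Ccnb1 and Plk1, mitotic genes that are not among the 52: the ratios were then 0.952 and 1.12.

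**Figure D1:**
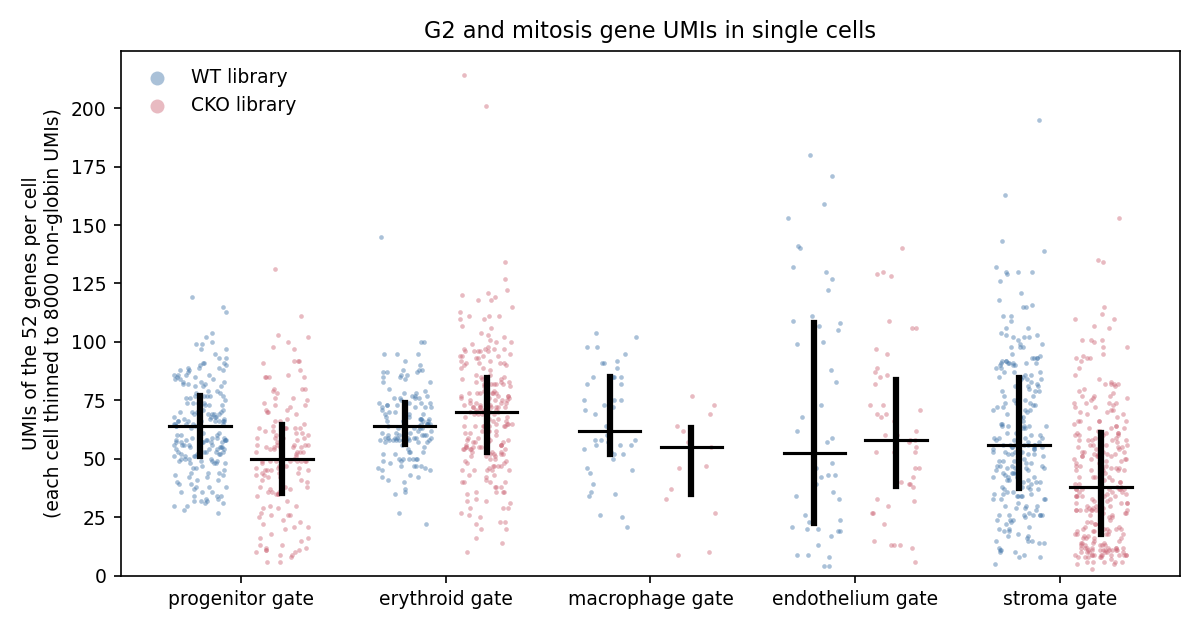
UMIs of the 52 genes per cell (y axis) after each cell was thinned to 8000 non-globin UMIs, by marker gate (x axis) and library; horizontal lines are medians and vertical bars quartiles. The CKO stromal cells have the lowest median, 38 against 56 in WT, and the erythroid CKO median of 70 lies above the WT median of 64.

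At 1 fixed depth the difference lay in part in a tail of cells with few UMIs of these genes. After thinning to 8000 UMIs, the median progenitor-like cell held 64 UMIs of the 52 genes in WT (quartiles 51 and 77) and 50 in CKO (35.5 and 64.5). The median endothelium-like cell held 52.5 in WT and 58 in CKO, the reverse of the summed level. No WT progenitor-like cell of 197 had fewer than 20, which allows a share of up to 1.52%, whereas 18 of 151 CKO cells did (11.9%; 7.22 to 18.2). Among stromal cells the share was 8.37% (5.19 to 12.6) in WT and 27.1% (21.9 to 32.8) in CKO. All 20 WT and 74 CKO stromal cells of this kind lacked Ccnb1 and Plk1 UMIs, and their median of S phase gene UMIs was 13.5 and 8, against 26 and 20 in the other stromal cells. Of endothelium-like cells, 18.8% of WT and 11.8% of CKO cells were this low, with intervals that overlap. In erythroid cells it was 0 of 139 and 3 of 230, so few globin-rich cells of either library were this low. Their quartiles were 56.5 and 74 in WT and 53 and 84.75 in CKO, a wider spread in CKO. The limit of 20 was set after seeing the data and cuts a range: 10 CKO progenitor-like and 17 WT and 31 CKO stromal cells had 15 to 24 UMIs. Under 30 UMIs, the shares were 1.02% and 20.5% in progenitor-like, 16.7% and 38.8% in stromal and 1.44% and 6.09% in erythroid cells.

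The genes were then read one by one. A gene counts as past the fold where its ratio is at least 1.5-fold and both libraries together hold at least 20 UMIs in the gate. In progenitor-like cells 2 of 52 genes were lower and 1 higher past the fold, against 10.6% lower and 19.9% higher of all genes measured. In erythroid cells 0 of 51 were lower and 7 higher (all genes 9.17% and 20.1%). In macrophage-like cells 12 of 50 were lower and 2 higher (16.5% and 14.2%), in endothelium-like cells 10 of 52 lower and 3 higher (18.1% and 11.0%), and in stromal cells 14 of 52 lower and 0 higher (11.1% and 13.8%). The share of higher genes in erythroid cells was thus below the background, and that of lower genes in stromal cells above it. The median log2 ratio of the 52 genes was -0.15, 0.23, -0.27, -0.25 and -0.37 in these gates, in the same order, beside 0.06, 0.10, -0.01, -0.08 and -0.01 over all genes. Counting genes on either side of a ratio of 1, 36 were below it and 16 above in progenitor-like, 11 and 40 in erythroid, 37 and 13 in macrophage-like, 37 and 15 in endothelium-like and 49 and 3 in stromal cells. How many of all genes lay on either side of 1 was not counted, so these numbers have no background share beside them.

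**Figure D2:**
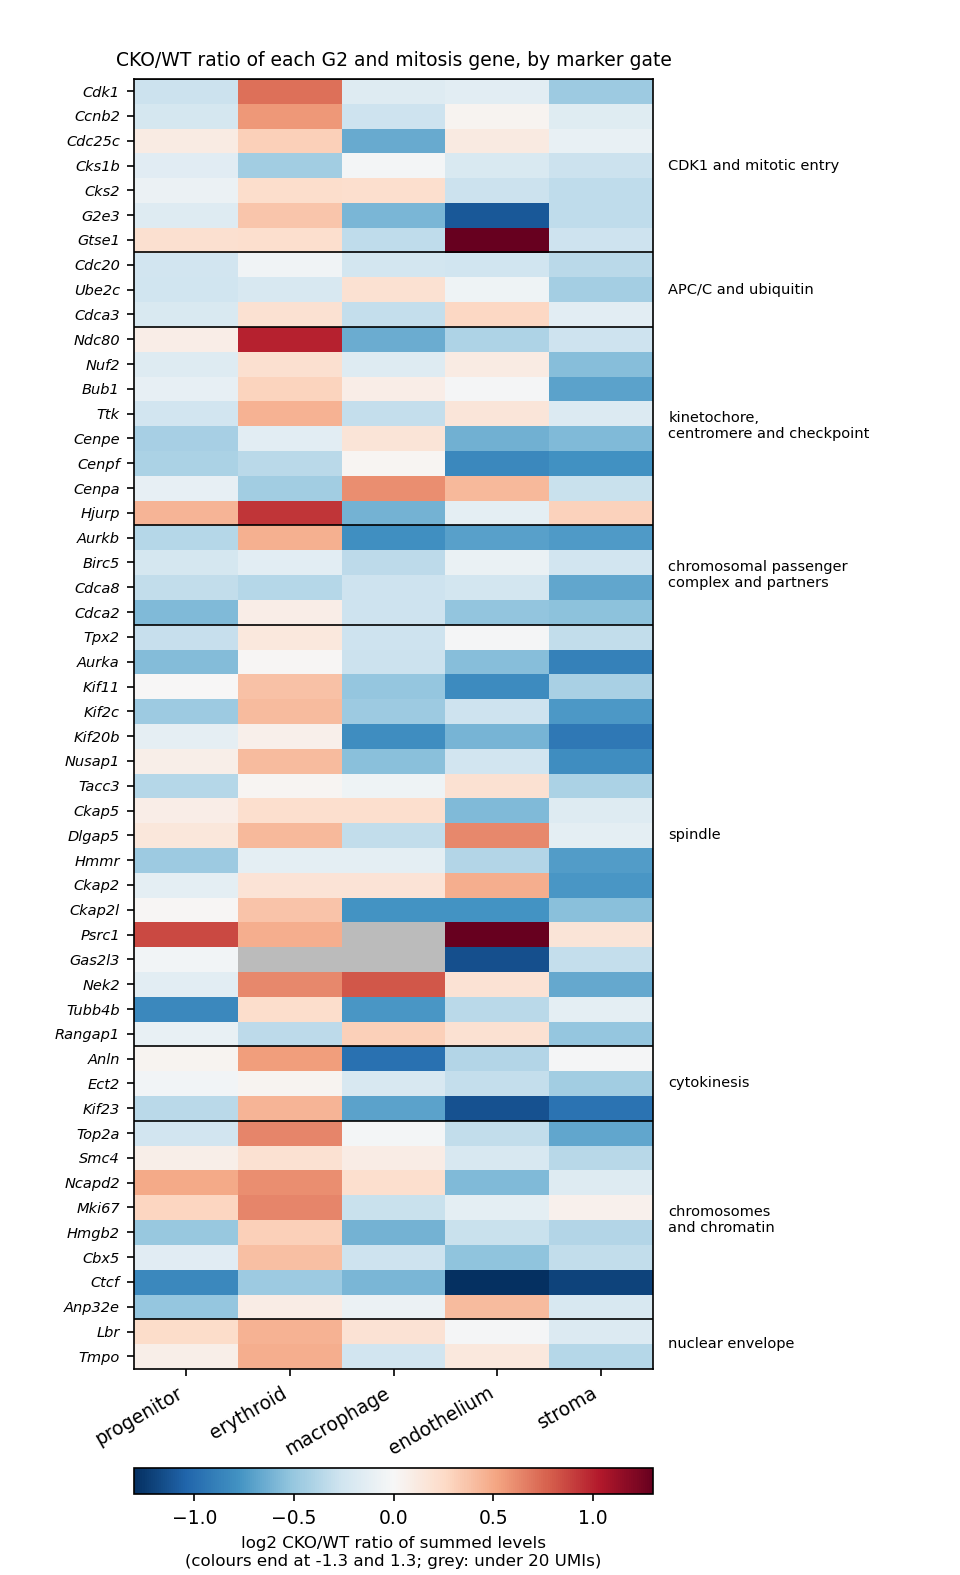
Colour gives the log2 ratio of summed CKO to WT levels for each of the 52 genes (rows, by role) in the 5 compared gates (columns). The erythroid column is mostly above 0 (40 of 51 genes) and the stromal column mostly below (49 of 52), and Ctcf is below 0 in all 5 columns. The same counts were not made over all genes.

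The first role is mitotic entry. CDK1 pairs with B-type cyclins such as Ccnb2 and is switched on by the phosphatase Cdc25c, while the small proteins Cks1b and Cks2 help the kinase reach its substrates. Cdk1 stood at 299 CPM in WT and 247 in CKO progenitor-like cells (0.826, 0.773 to 0.883), and at 302 and 217 in stromal cells (0.719, 0.670 to 0.771). In erythroid cells it stood at 149 and 244, a ratio of 1.64 (1.49 to 1.81). Of the compared gates the erythroid one had the lowest Cdk1 level in WT, and in CKO it lay close to the progenitor level. Ccnb2 had 141 and 120 in progenitor-like cells (0.853) and 156 and 231 in erythroid cells (1.48, 1.35 to 1.63). Ccnb2 in stromal cells was 106 and 95.5 (0.899), with an interval that includes 1. Gtse1 and G2e3, a p53-binding protein and a ubiquitin ligase, were thinly counted. In endothelium-like cells both were past the fold, Gtse1 with 10 WT and 38 CKO UMIs (2.45, 1.20 to 5.50) and G2e3 with 18 and 13 (0.465, 0.209 to 1.00).

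The paralogues Cks1b and Cks2 parted in erythroid cells. Cks1b stood at 423 CPM in WT and 310 in CKO erythroid cells (0.732, 0.686 to 0.782), and Cks2 at 588 and 687 (1.17, 1.11 to 1.23). In progenitor-like cells the ratios were 0.902 (0.859 to 0.948) and 0.949 (0.908 to 0.991), and in stromal cells 0.824 and 0.797, so there they lay close together. The files also list Cks1brt, a retrotransposed relative that could share reads with Cks1b. Cdc25c, a thinly counted gene at 18.3 and 22.7 CPM in erythroid cells, had intervals that included 1 in the 5 compared gates.

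Next come the genes of the APC/C and of ubiquitin transfer. Cdc20 activates the APC/C, Ube2c is its ubiquitin-conjugating enzyme, and Cdca3 is a trigger of mitotic entry linked to ubiquitin ligase. Cdc20 stood at 235 and 198 in progenitor-like (0.842, 0.781 to 0.907), 141 and 110 in stromal (0.782) and 217 and 210 in erythroid cells (0.967, 0.886 to 1.05). Cdc20 was below 1 in all 5 gates, with an interval below 1 in progenitor-like, endothelium-like and stromal cells. Cdca3 stood at 195 and 223 in erythroid cells (1.14, 1.05 to 1.25), 150 and 131 in progenitor-like cells (0.873, 0.796 to 0.957) and 125 and 151 in endothelium-like cells (1.20, 0.972 to 1.49). Ube2c was lower in progenitor-like (455 and 380; 0.834), erythroid (531 and 459; 0.864) and stromal cells (363 and 268; 0.739), and higher in macrophage-like cells (458 and 524; 1.15, 1.01 to 1.29). As a group these genes were below 1 in erythroid cells, at 0.945 (0.907 to 0.986), while the entry genes were above it at 1.12 (1.08 to 1.16). Cdc20 and Ube2c overlap exons of Elovl1 and Tnnc2 on the other strand, and no source used here says whether counting used strand.

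Kinetochores and centromeres tie chromosomes to the spindle. Ndc80 and Nuf2 belong to the complex that holds microtubules, Bub1 and Ttk are checkpoint kinases, Cenpe and Cenpf are kinetochore proteins, and Hjurp loads the centromeric histone Cenpa. Cenpf was lower in 4 gates: 108 and 80.8 in progenitor-like (0.751, 0.670 to 0.842), 152 and 119 in erythroid (0.785), 158 and 88.4 in endothelium-like (0.558, 0.445 to 0.699) and 126 and 73.0 in stromal cells (0.580, 0.517 to 0.651). In macrophage-like cells it had 82.6 and 84.3. Ndc80 had the highest ratio of any of the 52 in erythroid cells, 22.9 and 45.9 CPM (85 and 314 UMIs; 2.0, 1.57 to 2.58), while its partner Nuf2 stood at 27.8 and 32.0 (1.15, 0.909 to 1.47). Outside erythroid cells Ndc80 had 1.06 in progenitor-like and 0.827 in stromal cells, both with intervals that include 1. Bub1 passed the fold in stromal cells (42.6 and 26.2; 0.616, 0.505 to 0.750) and in none of the other compared gates, and this difference between gates was not tested.

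The ratios of Hjurp and Cenpa lay on opposite sides of 1 in all 5 gates. Hjurp stood at 25.9 and 49.2 in erythroid cells (1.90, 1.51 to 2.41), 24.3 and 33.1 in progenitor-like (1.36, 1.11 to 1.67) and 53.1 and 65.3 in stromal cells (1.23, 1.06 to 1.43), where it was the sole gene of the 52 with an interval above 1. Cenpa stood at 188 and 137 in erythroid (0.729, 0.660 to 0.805), 219 and 204 in progenitor-like (0.928) and 217 and 177 in stromal cells (0.815). In macrophage-like and endothelium-like cells Cenpa was higher, at 163 and 248 (1.52, 1.25 to 1.83) and 210 and 282 (1.34, 1.14 to 1.58), with Hjurp at 0.653 and 0.916 there, both intervals including 1.

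The chromosomal passenger complex corrects wrong attachments and steers cytokinesis. It joins the kinase Aurkb with Birc5 (survivin) and Cdca8 (borealin), and Cdca2 brings a phosphatase to chromosomes. This group was below 1 in each gate, at 0.822 in progenitor-like, 0.897 in erythroid, 0.773 in macrophage-like and 0.753 in stromal cells. Cdca8 had intervals below 1 in all 5 gates, from 0.625 (0.569 to 0.686) in stromal cells, 186 and 116 CPM, to 0.848 (0.720 to 0.999) in endothelium-like cells. Birc5 stood at 400 and 342 in progenitor-like (0.856), 419 and 381 in erythroid (0.909) and 421 and 353 in stromal cells (0.839). Aurkb differed from its partners in erythroid cells, at 59.0 and 81.5 (1.38, 1.18 to 1.62), against 0.774 for Cdca8 there. Cdca2 stood at 31.1 and 20.9 in progenitor-like cells (0.672, 0.536 to 0.840). Elsewhere Aurkb lay between 0.577 and 0.773, with 101 and 78.2 in progenitor-like and 69.0 and 41.4 in stromal cells. Its relative Aurka, the spindle pole kinase, stood at 136 and 137 in erythroid cells (1.01, 0.905 to 1.13), 121 and 82.1 in progenitor-like (0.677, 0.606 to 0.757) and 64.0 and 34.7 in stromal cells (0.542, 0.459 to 0.640).

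The spindle group was the largest. In stromal cells 7 of its 17 genes were lower past the fold: Aurka, Kif2c, Kif20b, Nusap1, Hmmr, Ckap2 and Nek2. The kinesin Kif20b stood at 56.4 and 29.7 in stromal cells (0.527, 0.440 to 0.630) and 58.1 and 53.4 in progenitor-like cells (0.920, 0.794 to 1.06). Nusap1, which bundles microtubules near chromatin, stood at 52.2 and 29.9 in stromal cells (0.572), 58.8 and 62.1 in progenitor-like (1.06) and 109 and 145 in erythroid cells (1.32, 1.18 to 1.49). The tubulin gene Tubb4b was 1 of the 2 genes lower past the fold in progenitor-like cells, beside Ctcf. It stood at 528 and 296 in progenitor-like cells (4319 and 1674 UMIs; 0.561, 0.530 to 0.594) and 425 and 252 in macrophage-like cells (0.593, 0.503 to 0.696), but at 775 and 908 in erythroid cells (1.17, 1.12 to 1.23). The files hold a Tubb4b pseudogene, Tubb4b-ps1, with which reads could be shared. Psrc1, a microtubule protein and known p53 target, was the gene above the fold in progenitor-like cells, with 78 WT and 98 CKO UMIs (9.54 and 17.3 CPM; 1.82, 1.34 to 2.48). It was also high in endothelium-like cells (14 and 73 UMIs; 3.36, 1.88 to 6.44) and at 26.1 and 29.3 in stromal cells (1.12, 0.903 to 1.4). Ckap2 and its relative Ckap2l stood at 0.591 and 0.688 in stromal and 0.913 and 1.01 in progenitor-like cells. Rangap1, a regulator of the Ran cycle, had 0.791 (0.709 to 0.884) in erythroid and 1.24 (0.976 to 1.57) in macrophage-like cells, and Tacc3, a spindle microtubule stabiliser, 1.15 (0.915 to 1.46) in endothelium-like cells. For Ckap2 and Ckap2l, macrophage-like cells had 1.13 (0.576 to 2.14) and 0.582 (0.369 to 0.892), intervals that overlap.

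In cytokinesis, Anln and Ect2 organise the contractile ring and Kif23 is the motor of the central spindle. Kif23 stood at 58.7 and 30.2 in stromal (0.514, 0.430 to 0.613), 75.5 and 34.4 in endothelium-like (0.455, 0.320 to 0.645) and 28.2 and 22.1 in progenitor-like cells (0.783, 0.625 to 0.978). In erythroid cells it was 42.9 and 58.1 (1.35, 1.12 to 1.64). Anln, at 19.6 and 19.4 in stromal cells, had a ratio of 0.987 (0.762 to 1.28), and Ect2 0.730 (0.533 to 0.998).

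Of the chromosome and chromatin genes, Top2a untangles DNA, Smc4 and Ncapd2 are condensin subunits, Mki67 coats mitotic chromosomes, Hmgb2 bends DNA, Cbx5 is the heterochromatin protein HP1 alpha, Anp32e is a histone chaperone and Ctcf organises chromatin loops. Hmgb2 alone gave 16.8% of the UMIs of the 52 genes. It stood at 1480 CPM in WT and 1053 in CKO progenitor-like cells (0.711, 0.690 to 0.734), at 1716 and 1122 in macrophage-like cells (0.654) and at 1517 and 1162 in stromal cells (0.766). In erythroid cells Hmgb2 had 964 and 1192 (1.24, 1.19 to 1.29). Top2a stood at 231 and 359 in erythroid (1.56, 1.44 to 1.68), 247 and 208 in progenitor-like (0.843, 0.784 to 0.906) and 265 and 165 in stromal cells (0.624, 0.578 to 0.675). Mki67 had 157 and 243 in erythroid cells (1.55, 1.41 to 1.70) and 66.1 and 80.1 in progenitor-like cells (1.21, 1.07 to 1.38). In stromal cells Mki67 was at 48.4 and 50.3 (1.04, 0.885 to 1.22), beside a ratio of 0.624 for Top2a. Ncapd2 had ratios of 1.41 (1.16 to 1.71) and 1.52 (1.24 to 1.89) in progenitor-like and erythroid cells, and the other condensin gene, Smc4, 1.05 and 1.14. Anp32e had 233 and 164 in progenitor-like cells (0.703, 0.650 to 0.761) and 117 and 156 in endothelium-like cells (1.33, 1.07 to 1.66).

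Ctcf was lower in each gate with an interval below 1: 142 and 79.6 in progenitor-like (1163 and 450 UMIs; 0.560, 0.501 to 0.625), 106 and 76.4 in erythroid (0.723, 0.633 to 0.826), 99.7 and 66.2 in macrophage-like (0.664, 0.475 to 0.914), 166 and 56.9 in endothelium-like (0.343, 0.265 to 0.442) and 104 and 44.9 in stromal cells (0.433, 0.376 to 0.498). Cdca8 was the other gene with this pattern. Ctcf overlaps exons of Agrp and Gm5914 on the other strand, and Cdca8 those of 9930104L06Rik. Such overlaps also held for Nusap1 (with Oip5), Tubb4b (Fam166a), Lbr (Dnah14), Tmpo (Gm26765), Tacc3 (Tmem129), Rangap1 (Zc3h7b), Ckap2l (Gm14024) and Cdc25c (Gm3550). The nuclear envelope genes Lbr, the lamin B receptor, and Tmpo, a lamina-bound protein, had ratios of 1.37 (1.20 to 1.56) and 1.39 (1.26 to 1.53) in erythroid and 0.882 and 0.774 in stromal cells. They were the only role group above 1 in progenitor-like cells, at 1.11 (1.04 to 1.18).

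Across these roles, 11 genes had an interval above 1 in erythroid cells and below 1 in progenitor-like cells: Cdk1, Ccnb2, Cks2, Cdca3, Aurkb, Kif2c, Tubb4b, Kif23, Top2a, Hmgb2 and Cbx5. The converse held for 0 genes. Cks1b, Cdc20, Birc5, Cdca8, Hmmr and Ctcf were below 1 in all 5 gates, and 0 genes were above 1 in all of them. Both gates rest on the same pair of libraries, so these ratios are not independent. How many of all genes had these patterns was not counted, so the counts have no background share beside them.

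**Figure D3:**
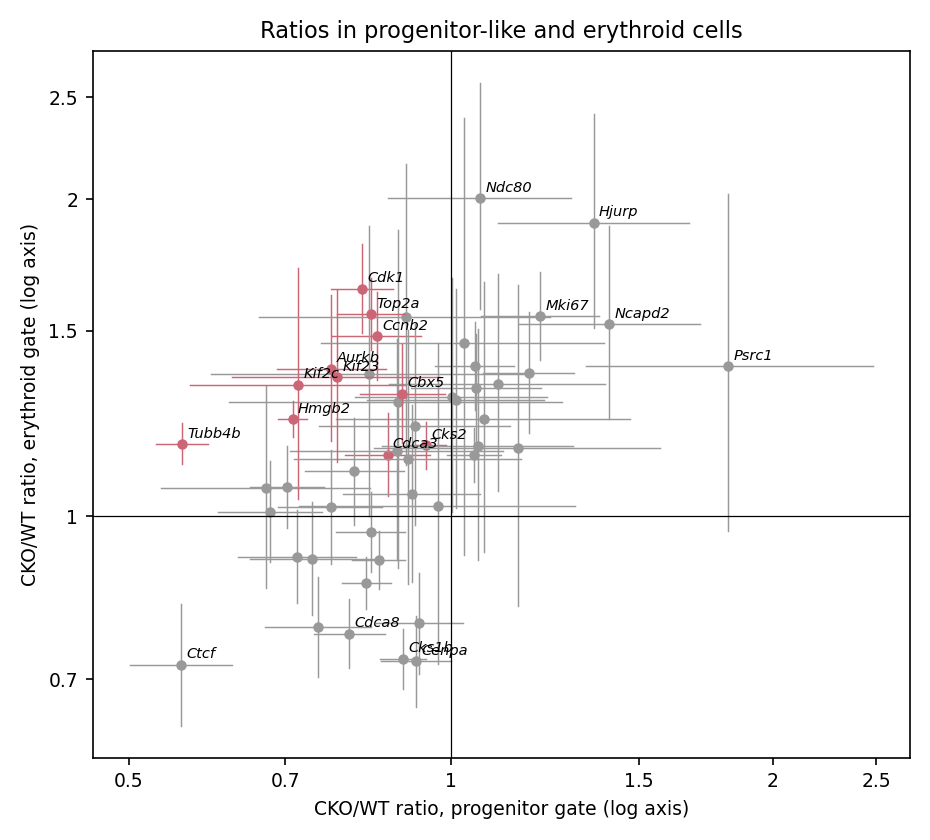
Ratio of CKO to WT levels in progenitor-like cells (x axis, log) and erythroid cells (y axis, log) for the members, with 95% counting intervals; Gas2l3 is left out for its low counts. The 11 genes in red lie below 1 on the x axis and above 1 on the y axis, with Cdk1 at 0.826 and 1.64, and Ctcf lies below 1 on both.

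To see which of the genes followed mitosis most closely, thinned cells with at least 3 UMIs of Ccnb1 and Plk1 together were set against cells with 0. Ccnb1 is the main mitotic cyclin and Plk1 a mitotic kinase. Such cells made up 35% of WT and 31.8% of CKO progenitor-like cells and 44.6% and 48.7% of erythroid cells, with overlapping intervals. In stromal cells the shares were 24.3% (19.0 to 30.2) and 12.1% (8.47 to 16.6), and in endothelium-like cells 33.3% (20.4 to 48.4) and 13.7% (5.70 to 26.3). Over all cells the 52 genes gave 83.5 UMIs per cell in WT cells high in Ccnb1 and Plk1 and 42.5 in those with none, and 81.9 and 32.0 in CKO cells. Within progenitor-like cells it was 73.3 and 57.1 in WT but 71.4 and 33.9 in CKO, so the libraries were alike in the high cells and apart in cells with none. Stromal cells had 94.3 and 38.9 in WT, and 86.9 and 27.3 in CKO.

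Pooled over all gates, Cenpf, Nek2, Nusap1, Cdc20, Cenpe and Gas2l3 were at least 4-fold higher in cells high in Ccnb1 and Plk1 in both libraries. Cdc20 had 2.5 UMIs per high WT cell against 0.531, a ratio of 4.71 (3.82 to 5.86), and 5.23 in CKO cells. Cenpf had 4.47 and 9.12, and Gas2l3, a cytoskeletal linker of late division, 8.87 and 8.29 on 37 UMIs. At the other end Anln, Hmgb2, Ctcf, Anp32e, Hjurp, Cks1b, Lbr and Cbx5 were under 2-fold in both libraries by the same pooled ratio, with Cbx5 at 1.10 and 0.990. The pooled ratios mix gates and did not hold in each. Within WT progenitor-like cells Cenpf had 1.67 (1.05 to 2.76), Cdc20 2.43 (1.68 to 3.61) and Nusap1 1.16 (0.601 to 2.35), whereas in WT stromal cells they had 9.6, 8.31 and 8.08. Within WT erythroid cells Cenpf had 1.83 (0.969 to 3.80) and Nek2 0.847 on 9 UMIs. Genes of the lower group passed 2-fold in WT endothelium-like cells, with Hmgb2 at 4.66 (3.75 to 5.85), Anp32e at 3.96 and Cks1b at 2.94, and Hjurp had 2.13 (1.32 to 3.47) in WT stromal cells. Cks1b (1.42 and 1.47) and Cks2 (2.49 and 2.54) differed here too by the pooled ratio. Within WT erythroid cells they had 1.67 and 1.68, and within WT stromal cells 1.93 and 3.28. The ratio was larger in the CKO library for 46 of the 52 genes, with medians of 2.08 in WT and 3.0 in CKO. This was not counted over all genes, so it has no background share beside it. The mix of cell types differs between the libraries, and its part in this was not tested. The CHR letters were in 3 of the 6 windows of the first group and 7 of the 8 of the second.

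**Figure D4:**
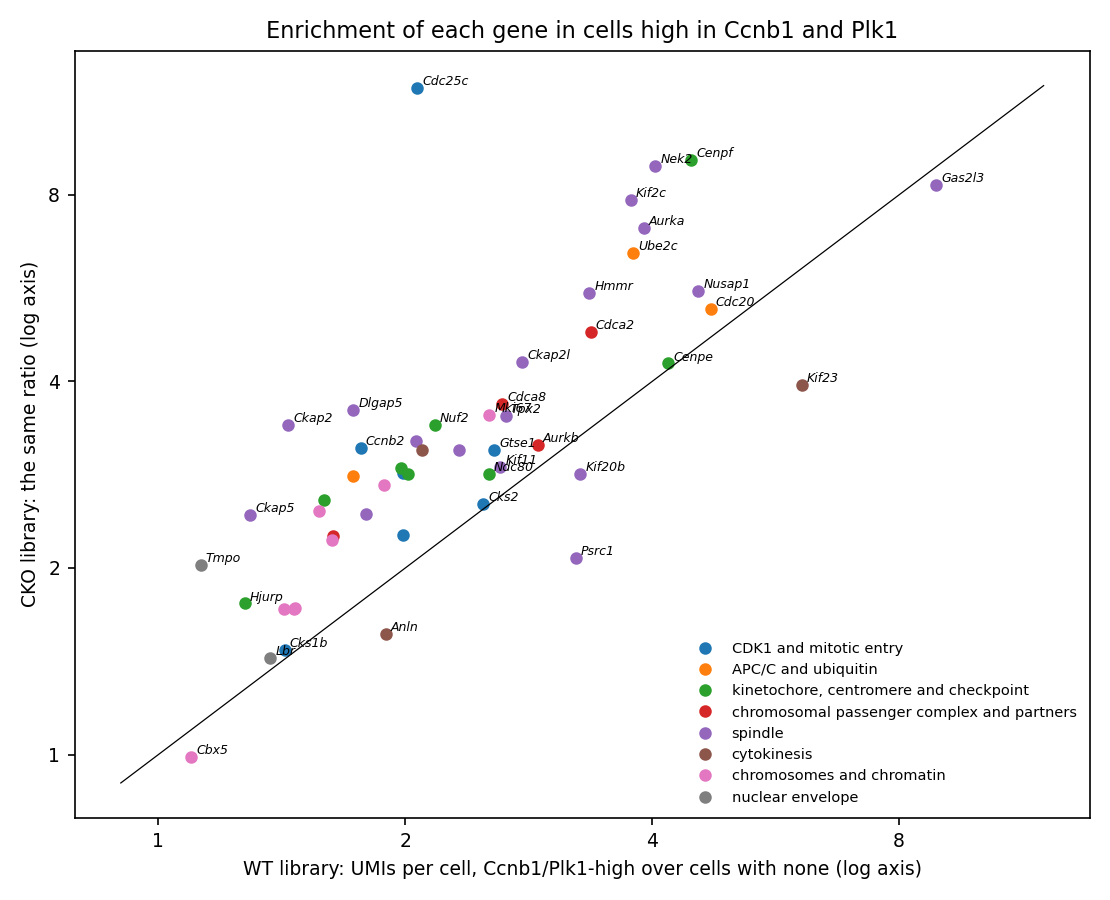
Each point is 1 of the 52 genes, coloured by role: UMIs per thinned cell in cells high in Ccnb1 and Plk1 over cells with none, in the WT (x axis, log) and the CKO library (y axis, log); the line marks equal ratios. Most points, 46 of 52, lie above the line, and this was not counted over all genes. The points run from Cbx5 near 1 on both axes to Gas2l3 above 8 on both.

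The CKO to WT ratios of these groups are a description only, since the groups were formed in the same libraries. Cells high in Ccnb1 and Plk1 were also fewer among CKO stromal cells (12.1% against 24.3%), and the part of this was not tested. In stromal cells the genes at least 4-fold higher by the pooled ratio had a ratio of 0.670 (0.630 to 0.711), those under 2-fold 0.788 (0.771 to 0.806) and the others 0.768. In progenitor-like cells the ratios were 0.835 (0.793 to 0.878) for the first, 0.777 (0.760 to 0.795) for the second, which holds Hmgb2, and 0.859 (0.845 to 0.873) for the others. In erythroid cells the first group was at 0.988 (0.939 to 1.04) and the others at 1.10 or above. Endothelium-like cells had 0.729 (0.659 to 0.806) for the first, 0.821 for the second and 0.911 for the others. In macrophage-like cells the ratios were 0.916 (0.802 to 1.04), 0.751 and 0.918, so the order of the groups was not the same in each gate.

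Erythroid cells were next followed by globin share, which grows as they mature. The summed level of the 52 genes stayed within a narrow band. In WT it ran from 7758 to 8367 CPM over 5 bands of globin share from 5% upward, and in CKO from 8647 to 9339. Cells above 25% globin had 8056 CPM against 8261 below in WT, a ratio of 0.975 (0.941 to 1.01; 135 and 18 cells). S phase genes had 0.927 (0.874 to 0.984) in the same WT cells. In CKO cells the summed level of the 52 genes above 25% was 1.02 times that below, and it turned to 0.975 with the limit at 20%. As a share of all UMIs, where globin fills the total, it was 0.843 in WT and 0.877 in CKO.

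**Figure D5:**
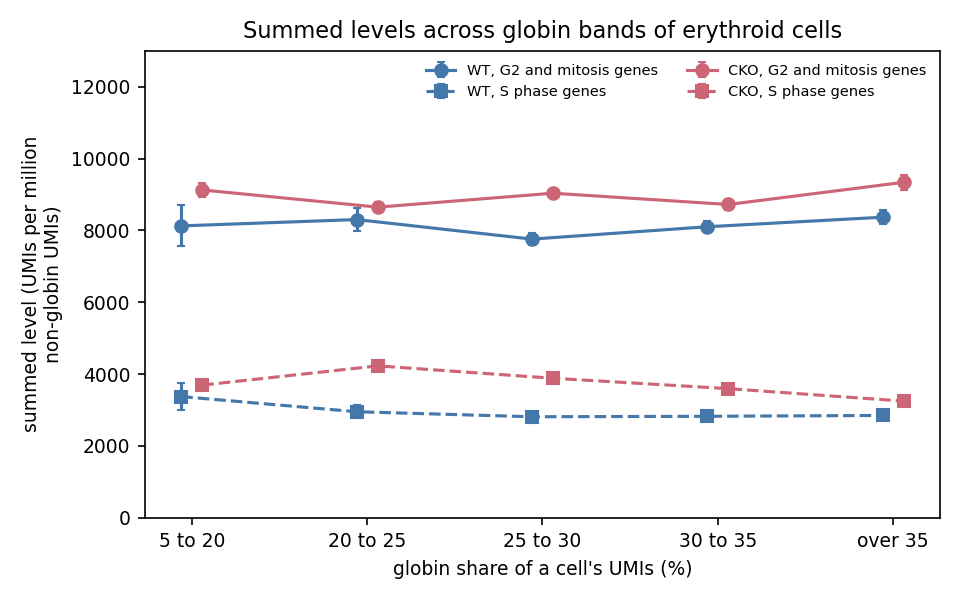
Summed levels of the 52 G2 and mitosis genes (circles) and of 43 S phase genes (squares) in CPM of non-globin UMIs (y axis), by globin share of the cell's UMIs (x axis), with 95% counting intervals. The upper lines stay between 7758 and 9339, the CKO line above the WT line in each band.

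Within the progenitor gate the difference varied with the kind of progenitor. The 42 WT cells with Klf1, the erythroid regulator, had the highest level, 9061 CPM, and the 1 CKO cell of this kind stood at 5481 (4724 to 6326). Progenitors with granulocyte-monocyte markers had 7911 and 7232 (0.914, 0.892 to 0.937; 70 and 25 cells). Those with 5 or more endothelium markers had 7931 and 6404 (0.808, 0.786 to 0.829; 27 and 66 cells), and the remaining cells 7766 and 6937 (0.893, 0.873 to 0.914). The mix of kinds thus differed between the libraries, with more cells with endothelium markers and fewer with Klf1 in the CKO gate. The median summed level of endothelium markers in the gate was 243 in WT and 515 in CKO cells; its part in the ratio was not tested beyond this split. The embryos of a pool differ in sex. The ratio was 0.947 (0.928 to 0.966) in Xist-positive cells (101 and 42) and 0.798 (0.784 to 0.812) in Y-positive cells (81 and 85). In stromal cells it was 0.813 and 0.725, and in erythroid cells 1.14 and 1.05.

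Cells of the CKO library with and without a Smarcc1 UMI were set side by side. Thinned CKO progenitor-like cells with at least 1 Smarcc1 UMI held a mean of 49.6 UMIs of the 52 genes (47.1 to 52.2; 29 cells), and those with none 51.4 (50.1 to 52.7; 122 cells). In WT the means were 63.0 and 64.5. CKO stromal cells had 42.9 (50 cells) and 43.3 (223 cells). In these gates the means with and without a Smarcc1 UMI lay close together. In CKO erythroid cells the mean was 77.4 with a Smarcc1 UMI (72.7 to 82.3, 13 cells) and 69.6 without (68.5 to 70.7, 217 cells). Both medians were 70, however, and the upper quartile was 73 with a Smarcc1 UMI and 85 without. CKO macrophage-like cells had means of 57.1 (51.7 to 63.0, 7 cells) and 40.5 (36.2 to 45.2, 8 cells), with medians of 57 and 41.5. These intervals count UMIs and leave out the spread between cells. Where no Smarcc1 UMI was drawn, a cell may still hold its RNA.

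Genes of the same pathway outside the 52 were read from lists. Of 63 other mitosis genes, 10 were lower and 3 higher past the fold in progenitor-like cells, 1 and 16 in erythroid, 17 and 4 of 56 in macrophage-like, 11 and 5 of 59 in endothelium-like and 14 and 0 in stromal cells, beside the background shares given above. Plk4, the kinase that starts centriole copying, stood at 191 and 64.4 in progenitor-like cells (0.337, 0.300 to 0.378). Ccnb1 had 196 and 158 in progenitor-like (0.807), 153 and 97.5 in stromal (0.637, 0.575 to 0.706) and 280 and 303 in erythroid cells (1.08, 1.00 to 1.17). Plk1 had 0.734, 0.735 and 1.24 in these gates. Ccna2, cyclin A, had 161 and 287 in erythroid cells (1.78, 1.62 to 1.95) and 1.00 in progenitor-like cells. Foxm1, the activator of many of these genes, was thinly counted, with 14 and 56 UMIs in erythroid cells (2.17, 1.19 to 4.22) and 8.19 and 12.0 CPM in progenitor-like cells (1.47, 1.03 to 2.09).

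The 43 S phase genes had summed ratios of 0.824 in progenitor-like, 1.33 (1.31 to 1.37) in erythroid, 0.784 in macrophage-like, 1.07 (1.03 to 1.12) in endothelium-like and 0.772 in stromal cells. They stood beside the 52 genes in progenitor-like and stromal cells (0.831 and 0.770), above them in erythroid cells (1.11), and on the other side of 1 in endothelium-like cells (0.868). Of 17 cycle inhibitors, 14 were compared in progenitor-like cells, with 7 higher and 1 lower past the fold, and 15 in stromal cells, again with 7 higher and 1 lower. In erythroid cells 5 were higher and 2 lower of 15, in macrophage-like cells 5 and 3 of 10 and in endothelium-like cells 7 and 2 of 14. Of all genes, 19.9% were higher past the fold in progenitor-like, 13.8% in stromal, 20.1% in erythroid, 14.2% in macrophage-like and 11.0% in endothelium-like cells. Cdkn1a, which encodes p21, stood at 29.2 and 111 in progenitor-like (3.81, 3.28 to 4.44), 19.6 and 150 in macrophage-like (7.69, 5.16 to 11.8), 12.0 and 96.1 in endothelium-like (8.02, 4.56 to 15.4), 12.6 and 25.9 in stromal (2.06, 1.56 to 2.74) and 24.3 and 20.1 in erythroid cells (0.826, 0.629 to 1.09). Cdkn1a was thus higher in the CKO library in each compared gate except the erythroid one. In the same order of gates, the 52 genes had 0.831, 0.860, 0.868, 0.770 and 1.11. Any link between Cdkn1a and the 52 genes was not tested. Cdkn1c, which encodes p57, stood at 1096 and 42.1 in endothelium-like cells (1189 and 71 UMIs; 0.0384, 0.0298 to 0.0489). The WT endothelium-like cells were also shallower, at a median of 14782 UMIs outside globin genes against 32175.5 in CKO, and their thinned counts of the 52 genes spread most widely (quartiles 22.5 and 108), with parietal endoderm markers at a median of 2367 and 1309 CPM; the part of these in the ratios of that gate was not tested.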

How the data were processed

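The deposited files hold raw UMI counts per gene and cell barcode for 1 library of each genotype, with no normalization by the authors apparent in them: per the file headers the values are integers. Cell Ranger, Seurat and GRCm38 are named, with no version, per the submitters' processing notes; no source used here says whether counting used strand. The WT library held 815 barcodes and 24538853 UMIs and the CKO library 865 and 27314411, with 6054 to 114332 and 6328 to 96471 UMIs per barcode, and they shared 1 barcode.

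Barcodes under 500 genes or over 10% mitochondrial UMIs were left out, as were 3 WT and 6 CKO doublets called by Scrublet (scanpy 1.11.5, expected rate 0.01); 784 and 841 cells remained. Each cell was gated on detected markers: globin share of at least 5% (erythroid; cells at 1% to 5% were set aside), at least 8 of 20 stroma, 5 of 11 endoderm, 6 of 12 macrophage, 9 of 14 megakaryocyte (with at least 20 of their UMIs per 10000), 8 of 12 endothelium or 5 of 11 progenitor markers. Cells in several gates were dropped, but the progenitor limit counted toward this only beside stroma or endoderm. Cells that passed it together with the erythroid, macrophage, megakaryocyte or endothelium limit were kept in that other gate. The median summed level of progenitor markers was 476 CPM in WT and 976 in CKO endothelium-like cells, and 755 and 948 in macrophage-like cells. At the limit itself stood 26 WT and 15 CKO progenitor-like cells. UMIs were summed per gate and library and given as counts per 1000000 UMIs outside globin genes (CPM), with exact Poisson 95% intervals. Ratios have conditional binomial intervals, shares exact Clopper-Pearson ones, and a count of 0 was taken as up to 3. UMIs of 1 cell are not independent, and embryo spread is not in these intervals. Gates needed at least 15 cells in each library to be compared. Thinning drew 8000 UMIs outside globin genes per cell, and shallower cells were left out. Xist-positive cells had at least 3 Xist UMIs.

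The lists, the 52 genes among them, were chosen with earlier results of these data known, and the gate limits and the limit of 20 UMIs were set after seeing the data. The genes named are the most counted of each role, those with the 5 largest and 5 smallest ratios of each gate at 100 UMIs or more, 3 paralogue pairs, the pathway genes and genes past the fold. Scripts ran in Python 3.11.15 with numpy 2.4.6, scipy 1.17.1, pandas 2.3.3 and matplotlib 3.10.9. Interval and fold code was tested on simulated data.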

Additional observations from a re-analysis of the deposited data

Results flagged for a closer look

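The summed level of the 52 genes differed in direction between gates under the same comparison of libraries. It was 1.106 times the WT level in CKO erythroid cells, against 0.831 in progenitor-like cells and 0.770 in stromal cells. With 1 library per genotype the difference between gates was not tested.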

How the results depend on the processing

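No paired analysis was possible because each genotype has 1 library and no test was run. Of the planned recomputations 41 kept direction and size, 29 moved and 3 turned, and of those added after seeing the data 8 moved and 2 turned; the cause was not tested. For the summed level, CKO over WT, in the order progenitor-like, erythroid, macrophage-like, endothelium-like and stromal cells, and leaving out those that did not move, the values were as follows. With stricter gates the progenitor ratio was 0.855. Without Hmgb2 and Tubb4b it was 0.883 in progenitor-like, 1.08 in erythroid and 0.941 in macrophage-like cells. In Xist-positive cells it was 0.947, 1.14, 0.895 (endothelium-like) and 0.813, and in Y-positive cells 0.798, 1.05, 0.832 and 0.725. Thinned to 1 depth it was 0.801, 1.08, 0.738 and 0.705 (stromal). As CPM of all UMIs it was 1.18 in erythroid cells. Added alternatives gave 0.811, 0.952, 0.893, 1.12 and 0.784 without cells high in Ccnb1 and Plk1, so that erythroid and endothelium-like cells turned, and 0.866, 1.12, 0.896, 0.908 and 0.783 as CPM of UMIs outside globin, ribosomal protein and mitochondrial genes. At 2-fold, 0 genes were lower or higher in progenitor-like and macrophage-like cells, 1 higher in erythroid, 4 lower in endothelium-like and 1 lower in stromal cells. Centred on the median gene, 4 were lower in progenitor-like and 3 higher in erythroid cells. With 100 UMIs needed, 1 was higher in macrophage-like and 0 in endothelium-like cells. For late over early erythroid cells, the WT ratio turned to 1.04 with the limit at 30% globin and was 0.843 as CPM of all UMIs, and the CKO ratio turned to 0.975 with the limit at 20% and 0.877 as CPM of all UMIs. In macrophage-like cells, stricter gates and the splits by sex left fewer than 15 CKO cells, too few to be compared: the ratios were 0.783 with 10 CKO cells, 0.897 in 14 Y-positive and 0.204 in 1 Xist-positive CKO cell. Depth limits thinly counted genes most: Gas2l3 had 218 UMIs in all and was not compared in erythroid and macrophage-like cells.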
